A study of Mus musculus with 8 samples.

Results

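The genes described here mark the endothelial cells of the liver, which line its sinusoids and larger vessels. They were chosen by name: a row of the deposited table belongs to them if its symbol is one of 32 listed genes, and all 32 were found among 27179 rows. RNA came from frozen liver tissue of 4 wild-type mice and 4 mice homozygous for V227A. This variant is a valine to alanine substitution in the nuclear receptor PPARɑ, which is encoded by *Ppara*. All 8 mice were adult males of the strain C57BL/6NHsd that had been fasted for 6 h. The V227A line descends from a single heterozygous founder made by germline adenine base editing, was backcrossed to that strain and bred through heterozygotes, and the substitution is present in every cell type, endothelial cells included. The measurement is the average log2 CPM of each gene, where CPM is the read count scaled to 1000000 reads, taken by the authors over all 8 libraries together. No single library's values (0 columns) were deposited with it, and the authors' own genotype comparison was not used. The values below are therefore levels averaged over all 8 livers. They carry no spread between mice, and whether any of these genes differed between wild-type and V227A was not tested.

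Liver sinusoidal endothelial cells are unusual among endothelia. They have open pores and little basement membrane, and they clear waste molecules, immune complexes and modified proteins from the blood through a set of scavenger receptors. They share with other endothelia the receptors for vascular endothelial growth factors (VEGF) and angiopoietins and the proteins of cell junctions. They also send signals to the cells around them, such as Wnt ligands and R-spondin from vessels around the central vein, which maintain the pericentral program of hepatocytes, and BMP ligands, which drive hepatocyte hepcidin and so control iron. Several of these genes are also expressed outside endothelium, for example *Mrc1*, *Stab1* and *Fcgr2b* in macrophages, *Aqp1* in bile duct cells and *Gata4* in stellate cells. In RNA from liver tissue with all its cell types, fewer cells of a type and less RNA per cell cannot be told apart.

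The regulatory sequence in front of some of these genes is shown first, since the members differ in it. RefSeq promoters of GRCm38.p6, each from 250 bases before to 50 bases after an annotated start, matched 18 of the 32 genes. The 4 printed here belong to *Stab1*, *Stab2* and *Clec4g*, sinusoidal genes with high levels, and to *Wnt9b*, a gene with a low level. They are examples and do not stand for all 18. They lie at chr14:31168592-31168891 (minus strand), chr10:87007893-87008192 (minus), chr8:3720602-3720901 (minus) and chr11:103749772-103750071 (minus). Capitals mark AGGAAG and CGGAAG on either strand, letters that contain the GGAA core bound by ETS factors, a family of transcription factors well known in endothelium.
Stab1: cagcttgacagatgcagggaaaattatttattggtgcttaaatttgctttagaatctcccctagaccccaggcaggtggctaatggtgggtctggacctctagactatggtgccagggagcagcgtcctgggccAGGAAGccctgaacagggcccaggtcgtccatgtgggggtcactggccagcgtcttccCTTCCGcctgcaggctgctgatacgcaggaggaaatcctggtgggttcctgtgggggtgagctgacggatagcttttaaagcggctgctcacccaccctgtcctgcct
Stab2: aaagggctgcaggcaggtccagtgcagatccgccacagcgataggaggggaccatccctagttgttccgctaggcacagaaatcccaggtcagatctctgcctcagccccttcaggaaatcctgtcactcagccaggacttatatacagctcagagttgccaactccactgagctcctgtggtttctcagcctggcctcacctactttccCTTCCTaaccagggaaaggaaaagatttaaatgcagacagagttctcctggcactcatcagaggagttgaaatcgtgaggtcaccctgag
Clec4g: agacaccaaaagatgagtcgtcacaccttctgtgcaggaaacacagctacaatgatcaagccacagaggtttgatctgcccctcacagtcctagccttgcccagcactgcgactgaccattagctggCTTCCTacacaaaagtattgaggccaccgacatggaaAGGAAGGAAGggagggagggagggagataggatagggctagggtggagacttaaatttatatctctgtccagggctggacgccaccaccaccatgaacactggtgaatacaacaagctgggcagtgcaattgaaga
Wnt9b: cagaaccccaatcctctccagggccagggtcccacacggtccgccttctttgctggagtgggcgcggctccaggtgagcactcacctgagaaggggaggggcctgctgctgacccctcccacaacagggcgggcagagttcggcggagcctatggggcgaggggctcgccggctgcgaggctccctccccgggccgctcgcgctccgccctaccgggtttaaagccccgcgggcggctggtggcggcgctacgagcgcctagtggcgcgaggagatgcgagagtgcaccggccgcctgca

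All 32 genes had reads in these livers. Their average log2 CPM ran from -0.21 for *Wnt9b* to 5.81 for *Eng*, and together they took 572 CPM, or 0.0572% of all counted reads. The depth behind these values is high. From the level of genes without reads, the mean effective library size was 27474000 reads, and the members had an estimated 21.7 to 1541 reads per library. Because a long transcript yields more reads than a short one, levels of different genes were compared as CPM per kilobase (kb) of exon, using the union of all exons that GENCODE vM21 annotates for a gene. Levels and ranks below are with this length unless another is named. On that scale the median member stood at 2.58 CPM per kb, against a median of 1.07 over the 17956 genes with reads and a known length. Above the latter median lay 26 of the 32 genes. Many genes with reads are barely expressed, and against the median of genes with an average log2 CPM of at least 0 only 11 of the 32 were higher.

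**Figure D1:**
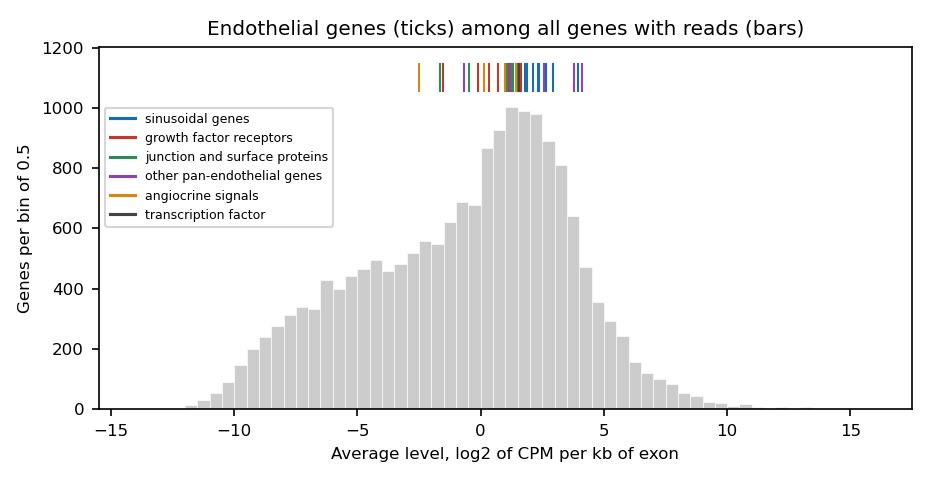
Number of genes (y axis) by average level, as log2 of CPM per kb of exon (x axis, bins of 0.5), for the 17956 genes with reads and a known length, grey bars. Colored ticks above the bars are the 32 endothelial genes by role, which lie between -2.52 and 4.11 with blue sinusoidal genes toward the right.

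The sinusoidal genes were the largest group, 10 of the 32. All 10 were above the median of genes with reads, with a median of 4.67 CPM per kb and a range from 2.42 for *Gpr182* to 15.4 for *Clec4g*. These 10 genes made up 49.2% of the CPM of the 32 members. The 5 other pan-endothelial genes had a higher median, 5.97 CPM per kb, and made up 23.3%. *Clec4g*, also known as LSECtin, is a C-type lectin of sinusoidal endothelium. Its average log2 CPM was 5.24, from an estimated 1039 reads per library. *Dnase1l3*, a secreted nuclease that degrades DNA in plasma, stood at 7.72 CPM per kb and *Ehd3*, a protein of endocytic recycling, at 6.32 CPM per kb. Both were ahead of the scavenger receptors themselves.

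*Stab1* and *Stab2* encode stabilin-1 and stabilin-2, very large scavenger receptors, of which stabilin-2 clears hyaluronan. Their average log2 CPM were equal at 5.47, from an estimated 1215 and 1214 reads per library. Per kb of exon they stood at 4.30 and 5.05 CPM. The ratio of *Stab1* to *Stab2* was 0.852 with the union of exons, 1.03 with the longest transcript and 0.996 with the coding sequence, so its direction depended on the length used. *Stab1* lies on chromosome 14 from 31139013 to 31168641 and *Stab2* on chromosome 10 from 86841198 to 87008025, both on the minus strand of GRCm38. *Lyve1*, *Mrc1*, *Fcgr2b* and *Gpr182* were lower than both stabilins with the union of exons. With the coding sequence, however, *Lyve1*, *Fcgr2b* and *Gpr182* ranked 9, 7 and 13 of the 32 members and *Stab1* and *Stab2* 19 and 18. *Lyve1*, a hyaluronan receptor, stood at 3.68 CPM per kb, and *Mrc1*, the mannose receptor, at 3.43. *Fcgr2b*, the inhibitory Fc receptor that takes up small immune complexes in the sinusoid, stood at 2.83. *Oit3*, a secreted protein with a zona pellucida domain, was at 5.22 CPM per kb, and *Gpr182*, an atypical chemokine receptor, was the lowest of the group with the union of exons and the longest transcript, whereas *Mrc1* was lowest with the coding sequence.

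The phosphatase *Ptprb*, which was grouped here with the growth factor receptors it acts on, led that group. It stood at 3.06 CPM per kb, with an average log2 CPM of 5.36. Its protein, VE-PTP, removes phosphate from TIE2 and VE-cadherin. *Tek*, which encodes TIE2, stood at 0.930 CPM per kb, and *Tie1*, its orphan partner, at 1.64. *Ptprb* was therefore 3.30 times as high per kb as *Tek*, and *Tie1* was 1.77 times as high. The 3 VEGF receptors were unequal. *Flt4* (VEGFR3), the receptor for VEGF-C and VEGF-D, stood at 2.23 CPM per kb, *Kdr* (VEGFR2) at 1.27 and *Flt1* (VEGFR1) at 0.351. *Flt4* was 6.34 times as high as *Flt1* with the union of exons and 3.78 times with the coding sequence. The union for *Flt1* is long, at 13504 bases against 6895 for its longest transcript, which lowers its value per kb. *Flt4* was ahead of *Kdr*, and *Kdr* ahead of *Flt1*, with each of the 3 length definitions.

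The ligands of these receptors spanned a wide range. Of the 7 VEGF ligands and co-receptors, all had reads, and *Vegfa*, which hepatocytes make, was highest at 23.9 CPM per kb. The lowest was *Pgf*, placental growth factor, at 0.00634 CPM per kb from an estimated 4 reads over all 8 libraries. *Vegfd* and *Vegfc*, the ligands of *Flt4*, stood at 1.06 and 0.888 CPM per kb. The 3 angiopoietins were low, each above only 10.7% to 31.2% of the genes with reads. *Angpt2* was the highest of them at 0.164 CPM per kb, and *Angpt4* the lowest at 0.00979 CPM per kb, from an estimated 5 reads in total. *Angpt1*, the main TIE2 agonist, lay between them with an estimated 7.55 reads per library.

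The junction and surface proteins had a median of 2.21 CPM per kb. *Esam* (2.80), *Cldn5* (2.46), *Cdh5* (2.32) and *Pecam1* (2.10 CPM per kb) stood close together. They encode an adhesion molecule of tight junctions, claudin-5, VE-cadherin and CD31. *Icam2*, a ligand for leukocyte integrins, stood at 0.720 CPM per kb and *Emcn*, the sialomucin endomucin, at 0.319, both below the median of genes with reads. With the coding sequence *Icam2* was the lower of the pair. Of the defining markers, *Cdh5* and *Pecam1* had average log2 CPM of 3.29 and 3.72, and *Stab2* and *Clec4g* of 5.47 and 5.24. Endothelial RNA was therefore present in these samples, as the label of the genes states.

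The remaining pan-endothelial genes ranged widely in level per kb. *Aqp1*, the water channel aquaporin-1, was highest at 17.3 CPM per kb (counting interval 16.9 to 17.6), above 89.3% of the genes with reads. With the longest transcript as length *Clec4g* ranked 1 and *Aqp1* 2, so which of them led depended on the length. *Eng*, which encodes endoglin, the co-receptor of the BMP9 receptor ALK1, had the highest average log2 CPM, 5.81, and stood at 13.9 CPM per kb. *Egfl7*, a secreted factor of the vessel matrix, stood at 5.97 CPM per kb. *Ramp2*, which turns the calcitonin receptor-like receptor into a receptor for adrenomedullin, was at 2.29. *Nos3*, endothelial nitric oxide synthase, stood at only 0.630 CPM per kb from an estimated 71.5 reads per library, and was below the median of genes with reads.

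**Figure D2:**
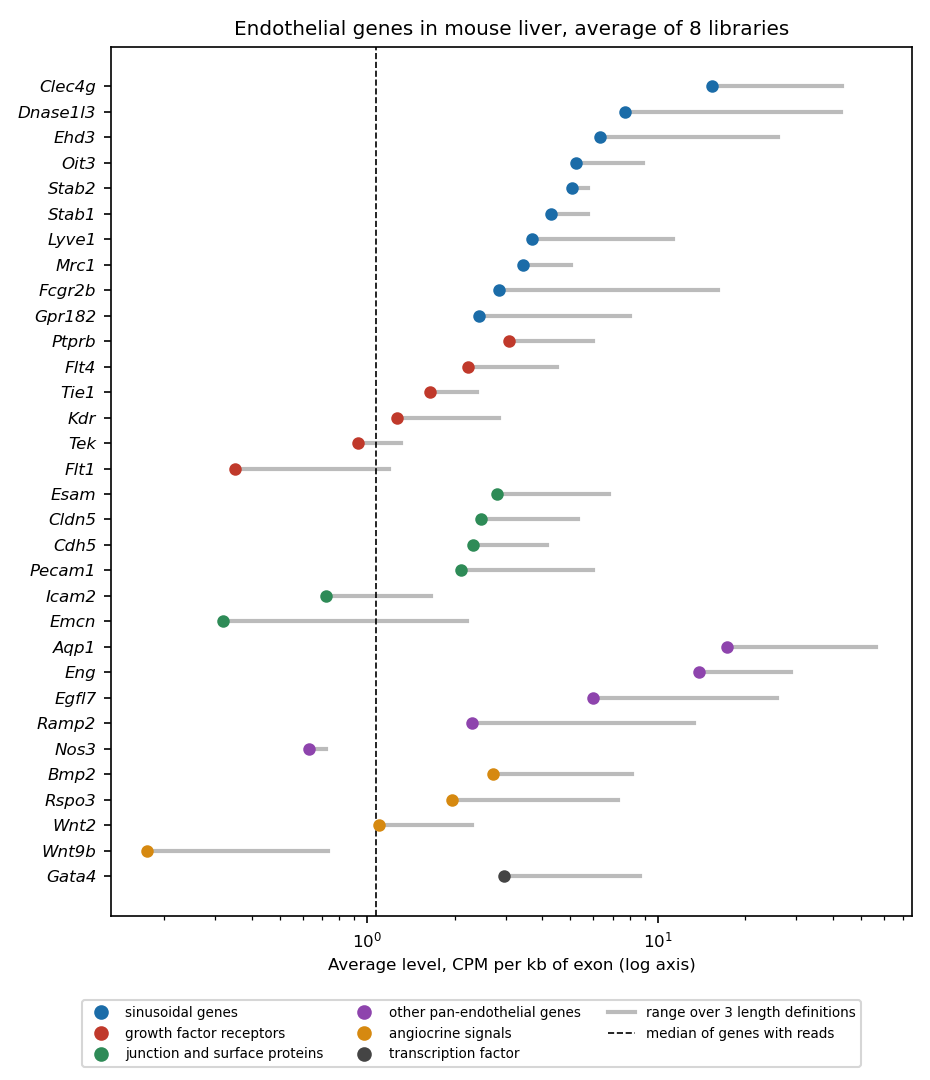
Average level of each of the 32 endothelial genes in CPM per kb of exon (x axis, log scale), grouped by role. Points use the union of annotated exons, grey lines span the values with 3 definitions of length, and the dashed line is the median of genes with reads (1.07, union of exons). Sinusoidal genes all lie to the right of the dashed line, and *Wnt9b* is the lowest point at 0.175.

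The 4 angiocrine signals took 3.36% of the members' CPM. *Bmp2*, a ligand of liver endothelium that controls hepcidin, led with 2.70 CPM per kb and an average log2 CPM of 3.27. *Rspo3*, the R-spondin of the central vein that strengthens Wnt signaling, stood at 1.96 CPM per kb, and the Wnt ligands *Wnt2* and *Wnt9b* at 1.10 and 0.175. *Wnt9b* had an estimated 21.7 reads per library, the fewest of all members, with a counting interval of 0.150 to 0.203 CPM per kb. The counting interval of *Wnt2*, 1.01 to 1.19 CPM per kb, lay above it. *Wnt2* was 6.27 times as high as *Wnt9b* per kb of exon and 3.12 times with coding sequences, since *Wnt9b* has longer exons for a coding sequence of similar length. The order from *Bmp2* to *Wnt9b* was the same with all 3 length definitions.

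Of the 14 other genes of the Wnt and R-spondin pathway that were looked up, all had reads. The Wnt co-receptor *Lrp5* was highest at 6.04 CPM per kb and *Rspo1* lowest at 0.136. *Rspo3* was 14.4 times as high per kb as *Rspo1*, and 21.9 times with coding sequences. The R-spondin receptor *Lgr4* stood at 5.50 CPM per kb and its relative *Lgr5*, a Wnt target of pericentral hepatocytes, at 0.243. Of the 11 BMP pathway partners, again all had reads. The target gene *Id3* was highest at 14.9 CPM per kb, and the ligand *Bmp10* lowest at 0.0395. *Bmp6*, the other endothelial BMP that controls hepcidin, stood at 0.402 CPM per kb, so that *Bmp2* was 6.72 times as high. *Acvrl1*, which encodes ALK1, stood at 0.521 CPM per kb, and its co-receptor *Eng* was 26.6 times as high.

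*Gata4* is the only transcription factor among the members. It directs the sinusoidal, discontinuous type of endothelium and represses the continuous type. It stood at 2.95 CPM per kb, with an average log2 CPM of 3.54 and an estimated 317 reads per library. Of 15 other transcription factors of endothelial cells, all had reads, with a median of 0.851 CPM per kb. *Klf2*, induced by shear stress, was highest at 3.32 and *Gata2*, a factor of endothelium and blood progenitors, lowest at 0.108 CPM per kb. *Gata2* was lowest with each of the 3 lengths, but the highest was *Ets2* with the longest transcript and *Maf* with the coding sequence. *Gata4* was 27.4 times as high per kb as *Gata2*, 3.47 times as high as *Gata6*, and 2.42 times as high as *Erg*, an ETS factor of all endothelium. These are ratios in RNA of liver tissue, to which stellate cells also bring *Gata4*, and not ratios within endothelium.

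The lists named here for other vessel types had lower medians than the members, although single genes of the lists overlapped with them in level. From which vessels the reads of these listed genes came was not tested. The 11 genes of continuous and large-vessel endothelium all had reads, with a median of 0.186 CPM per kb, and 1 of them lay above the median of the members. This was *Plvap*, a protein of fenestral diaphragms, at 16.9 CPM per kb. *Aplnr*, the apelin receptor, was lowest at 0.00491 CPM per kb from an estimated 4 reads in total. *Vwf*, von Willebrand factor, stood at 0.366. Of 5 genes of lymphatic endothelium, *Ccl21a* was listed without reads, *Mmrn1* was lowest at 0.0468 CPM per kb and *Prox1* highest at 2.22. *Prox1* is also a hepatocyte factor and *Reln* a stellate cell gene, so these values are not specific to lymphatic vessels.

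Markers of the other liver cells give the scale of these values. The 10 hepatocyte markers had a median of 5240 CPM per kb, from 168 for *Hnf4a*, their nuclear receptor, to 29709 for *Alb*, albumin. The 10 Kupffer cell markers had a median of 7.53 CPM per kb, from *Adgre1* (F4/80) at 1.45 to the lectin *Clec4f* at 33.2, and 7 of them lay above the median member. With the coding sequence *Cps1* was the lowest hepatocyte marker and *Cd5l* the highest Kupffer cell marker. For stellate cells the median was 1.24 CPM per kb, with *Hgf* lowest at 0.134 and *Dcn*, decorin, highest at 17.1. For cholangiocytes it was 0.870, with *Cftr* lowest at 0.00763 and *Spp1*, osteopontin, highest at 14.5. Markers of B, T and NK cells reached 0.728 CPM per kb (*Cd79b*) and fell to 0.0237 (*Ms4a1*), and those of neutrophils lay between 0.00488 (*Ly6g*, an estimated 1 read in total) and 0.808 (*S100a9*). Among red blood cell markers the globin *Hbb-bs* was highest at 102 CPM per kb, and no row was found under the symbol *Hbb-bt*. The share of reads that came from cells other than endothelium was not tested for any member, *Mrc1*, *Stab1*, *Fcgr2b*, *Aqp1* and *Gata4* included.

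**Figure D3:**
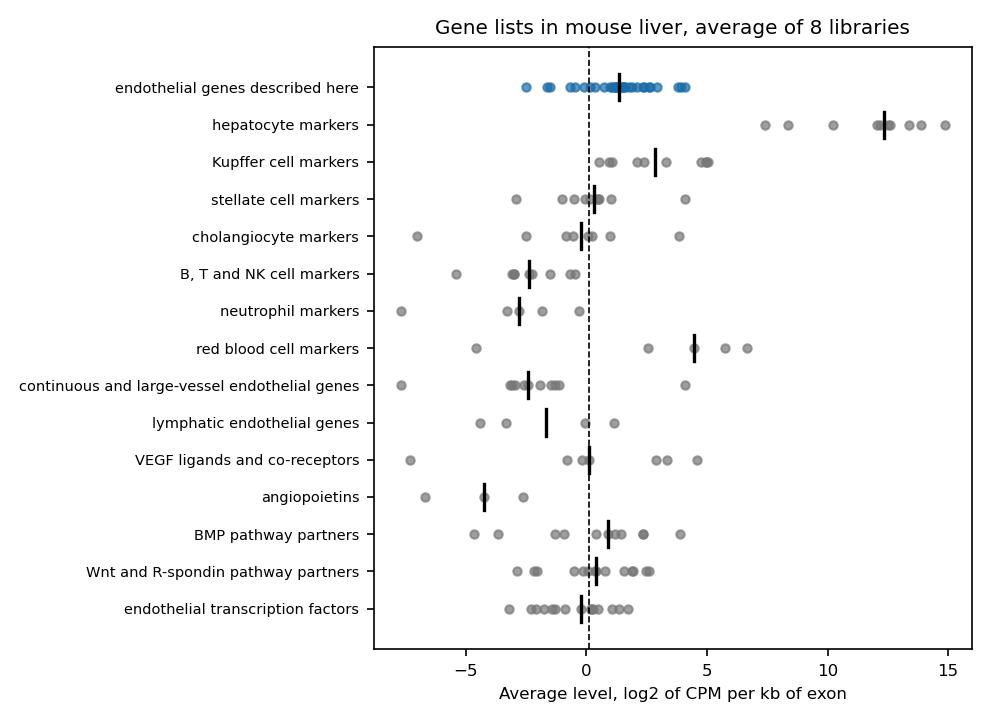
Average level of single genes (points) as log2 of CPM per kb of exon (x axis) for the 32 endothelial genes, blue, and 14 other gene lists, grey. Black bars are medians and the dashed line is the median of genes with reads. The medians of 11 of the 14 lists lie below that of the endothelial genes, and those of hepatocytes, Kupffer cells and red blood cells lie above it.

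In the order of all 32 genes by level per kb, neighbours were often close. Without values per library, only the counting error of the reads can be set against their distance. The 95% Poisson intervals of the estimated totals overlapped for 14 of the 31 pairs of neighbours. *Aqp1*, *Clec4g*, *Eng*, *Dnase1l3*, *Ehd3* and *Egfl7* were separated from each other by more than this error. All neighbours from *Ptprb* (3.06 CPM per kb) down to *Rspo3* (1.96) overlapped, a run of 12 genes in which adjacent members were not separated, although the intervals of its first and last gene did not overlap. At the lower end *Flt1* and *Emcn* overlapped, and *Wnt9b* lay apart from *Emcn*, although *Nos3* was the lowest member with the coding sequence. These intervals leave out the spread between mice, so even separated neighbours may not differ beyond it. The length definition moved *Ramp2* most, from rank 20 of 32 with the union of exons to rank 10 with the longest transcript and rank 8 with the coding sequence.

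The promoters of the 18 matched members ranged widely in CpG pairs, the sites of DNA methylation in mammals, and had the same median, 7, as promoters in general. Over the first listed promoter of 27025 genes, the median was 7 CpG pairs in 300 bases and the upper quartile 21. *Ehd3*, *Flt4*, *Wnt2*, *Flt1* and *Wnt9b* had 24 to 29. The other 13 had 2 to 19, with *Emcn* lowest and *Kdr* highest, and among these were the sinusoidal genes *Mrc1* (3), *Clec4g* (4), *Stab2* (4), *Fcgr2b* (6) and *Stab1* (7). The 3 matched members with the highest level per kb, *Aqp1*, *Clec4g* and *Eng*, had 8, 4 and 6 CpG pairs, and the pair with the most, *Flt1* and *Wnt9b*, were among the 3 lowest members of all. *Emcn*, however, had the fewest CpG pairs and a low level, and *Ehd3* had 24 and a high level. The RefSeq start used was not always the start of the gene in GENCODE. The distance was 1069 bases for *Egfl7*, 707 for *Ehd3*, 476 for *Fcgr2b* and 416 for *Flt4*.

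**Figure D4:**
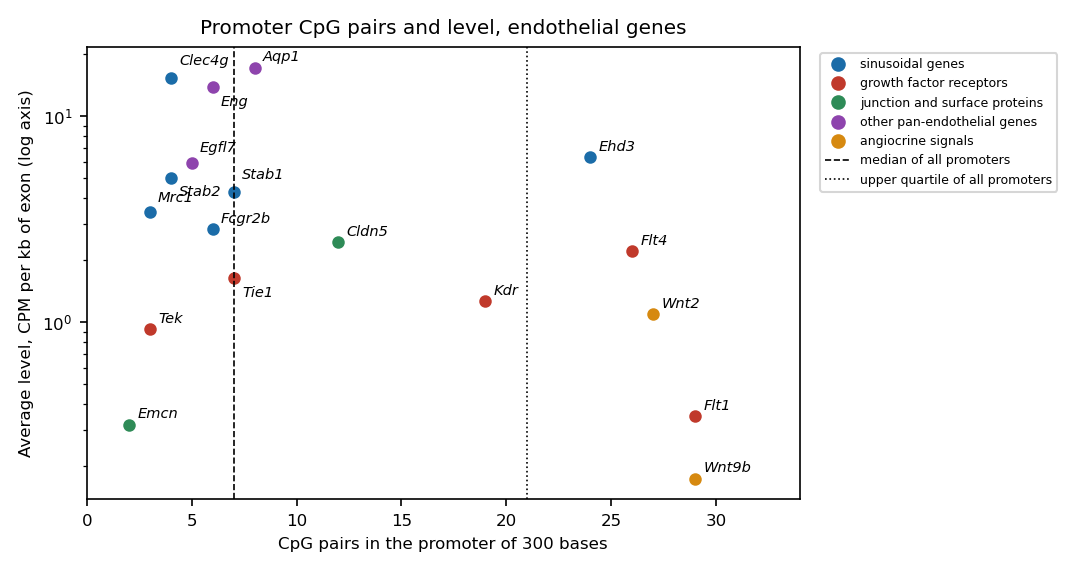
CpG pairs in the RefSeq promoter of 300 bases (x axis) against average level in CPM per kb of exon (y axis, log scale) for the 18 endothelial genes with a promoter sequence, colored by role. Vertical lines are the median (7, dashed) and upper quartile (21, dotted) of all promoters. *Ehd3*, *Flt4*, *Wnt2*, *Flt1* and *Wnt9b* lie to the right of the dotted line.

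Searched on both strands, the letters AGGAAG were found in 11 of the 18 member promoters (61.1%) and in 35.1% of all 27025. The 11 were *Aqp1*, *Clec4g*, *Egfl7*, *Ehd3*, *Emcn*, *Eng*, *Flt1*, *Mrc1*, *Stab1*, *Stab2* and *Tie1*. CGGAAG was found in 2 of them, *Stab1* and *Tie1*, against 17.2% of all. Either form was present in the same 11 genes, against 46.4% of all promoters. The promoter of *Clec4g* printed above holds 3 matches, of which a pair overlap, and that of *Wnt9b* holds 0. The matches did not simply follow level or group. *Flt1* and *Emcn*, with low levels, held 2 each, and the sinusoidal gene *Fcgr2b* held 0. The letters AGATAA, which fit GATA factors, were found in 1 promoter, that of *Tek*, against 11.4% of all, and TATAAA in those of *Clec4g* and *Flt1*, against 14.2%. These are matches of letters in a short window, with no test, and no binding was measured.

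For 10 of the 32 genes, annotated exons overlap those of another gene. Where that gene was also counted, the counting could have split or dropped reads. The only genes that overlap *Clec4g*, *Fcgr2b*, *Rspo3* and *Stab2* had no row in the deposited table. *Ramp2* shares 1103 bases, 33.4% of its exons, with *Vps25* on the same strand, a gene with an estimated 2064 reads per library against 208 for *Ramp2*. The level of *Ramp2* is therefore uncertain. *Nos3* shares 25.2% of its exons with the antisense gene *Gm15587*, which had no row either. It shares 7.12% with *Atg9b*, which lies on the opposite strand. *Atg9b* had an estimated 3.91 reads per library. *Rspo3* shares 13.1% with an antisense gene, *Gm48159*. The libraries were stranded, but whether the counting used strand is not given in the sources used here. The overlaps of *Clec4g*, *Egfl7*, *Eng*, *Fcgr2b*, *Gpr182*, *Stab1* and *Stab2* with any other single gene were below 8% of their exons.

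*Egfl7* also holds a microRNA of endothelial cells, miR-126, which dampens inhibitors of VEGF signaling. Its hairpin lies at chr2:26591357-26591429 on the plus strand of GRCm38, and all 73 of its bases lie in the union of exons annotated for *Egfl7*. That union has 3581 bases against 1865 for the longest transcript. Whether the hairpin lies in exons of the main *Egfl7* transcript was not examined. The mature sequence is printed with its seed, bases 2 to 8, in capitals.
mmu-miR-126a-3p: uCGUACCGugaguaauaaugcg
The row of the hairpin gene *Mir126a* held an estimated 31 reads over all 8 libraries, an average log2 CPM of -2.23, against 587 reads per library for *Egfl7*. Libraries made from poly-A RNA capture unprocessed host transcripts and not mature microRNAs, so this value is no measure of miR-126.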

How the data were processed

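The authors sequenced stranded poly-A libraries of 8 livers as paired reads. Per the labels and methods they trimmed reads with Trimmomatic, checked them with FastQC, aligned them with STAR to GRCm38/mm10, used featureCounts for gene counts and compared genotypes in edgeR. Versions, annotation, strand setting and any filter are not given in the sources used here. The deposited average log2 CPM per gene, over all 8 libraries with a prior count, is the value used. The deposited table also holds 4 columns of the authors' own V227A against wild-type comparison (log2 fold change, F, p-value and FDR). These hold the study's findings and were not used. No values of single libraries (0 columns) are in it, so the genotype test planned for such columns was not run.

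Genes at the lowest log2 CPM (-3.78, 8242 genes) were taken as without reads, leaving 18937. With a prior count of 2 this floor gives a mean effective library of 27474000 reads, and each gene's reads follow. As a check, summed reads came within 0.1 of an integer for 99.9% of 2378 genes with 1 to 5 of them. The recovery was also tested on simulated data built with the same prior count. That checks the arithmetic and cannot check the choice of prior count. Intervals are 95% Poisson intervals of the rounded totals and cover counting error only. CPM per kb is the CPM above the floor divided by the union of exons in GENCODE vM21 (GRCm38), known for 94.8% of genes with reads. The annotation behind the counts may differ from GENCODE. No length definition used here would show such a mismatch, since all come from GENCODE. Alternatives were the longest transcript, the longest coding sequence, a minimum log2 CPM of 0, subtraction of the floor, and means in place of medians. Promoters and the microRNA come from RefSeq GRCm38.p6, using the first listed promoter of a gene.

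The members, the lists and the rules were chosen with earlier results of these data known. Named are all members, and of each list the highest gene, the lowest gene and any gene without reads, except 1 item that is not reported here. Other list genes named, such as *Angpt1*, *Lgr4*, *Acvrl1* or *Vwf*, were chosen after their values were seen. Python 3.11.15 with pandas 2.3.3, numpy 2.4.6, scipy 1.17.1 and matplotlib 3.10.9 was used.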

Additional observations from a re-analysis of the deposited data

How the results depend on the processing

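The count of members above the median of genes changed most with the genes used as the background: it was 11 of 32 against genes with an average log2 CPM of at least 0, which removes the many barely expressed genes by construction. With the longest transcript or the longest coding sequence as length it was 25 and 23, choices made after seeing the data. The median log2 level per kb of the members was 1.37 with the union of exons, 1.77 with the longest transcript and 2.58 with the longest coding sequence, an alternative chosen after seeing the data. Shorter lengths raise every value by construction. Of the 10 members highest per kb, 9 and 8 were also among the 10 highest with these lengths. Subtracting the floor moved the median log2 CPM of the members from 3.49 to 3.47. Of 14 lists, 11 lay below the members by median and 11 by mean. The planned coding length of RefSeq proteins was not run, and neither were the planned genotype fits or leaving out single libraries. No paired analysis was possible because the table holds no values per library. Depth was lowest for *Wnt9b*, which rests on an estimated 174 reads over all libraries, and the spread between mice cannot be seen for any gene.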
